A study of Homo sapiens with 5 samples.

Results

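Receptor tyrosine kinases were followed at the transcript level in MIAPaCa2, an established human cell line from a very poorly differentiated pancreatic ductal adenocarcinoma (PDAC), after ectopic expression of the collagen-binding α2 integrin subunit. A list of 51 human receptor genes was used, and a gene was measured where the platform annotation assigns at least 1 probe set to it alone. Of the 51, 49 had such a probe set, 159 probe sets in all, among 19775 genes and 41091 single-gene probe sets on the array. EPHB2 was not analysed here. DDR1 had no probe set of its own, and 4 probe sets annotated to both DDR1 and the microRNA MIR4640 were kept apart.

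Total RNA of 5 stably transfected, drug-selected populations was hybridised to 1 Affymetrix array each, so no value below has a replicate and no p-value is given. MP2-α2/CI cells carried full-length α2 under a cytomegalovirus promoter and were maintained on collagenI coated at 25 µg/mL, and MP2-α2/TC cells, from the same original panning on ligand, carried the same construct on standard tissue culture plastic. MP2-α2Δ cells, also grown on collagenI, carried an α2 from which the cytoplasmic domain had been deleted, and MP2-α9α2 cells carried a chimera of the α9 extracellular and transmembrane domains with the α2 cytoplasmic domain and were maintained on tenascin FNIII coated at 10 µg/mL. MP2-mock cells carried no integrin construct and were kept under drug selection, the drug not being stated. Cells with α2 or α2Δ were selected with zeocin and MP2-α9α2 cells were kept in G418, so construct, substrate and drug cannot be told apart between MP2-α9α2 and MP2-α2Δ cells. All were stable populations of 1 cell line.

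Receptor tyrosine kinases are single-span membrane proteins that dimerise or cluster when a ligand binds and then phosphorylate each other and recruit adaptors of the RAS, PI3-kinase and PLCγ pathways. Most bind soluble growth factors, EPH receptors bind ephrins on neighbouring cells, and the discoidin domain receptors DDR1 and DDR2 bind triple-helical collagen itself, without an integrin, and stay phosphorylated for hours. In PDAC, EGFR, MET and AXL are the members best known from studies of growth and invasion. RYK and PTK7 have catalytically inactive kinase domains and act as Wnt co-receptors.

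The deposited values, 1 for each probe set of an array, are treated as log2. The MP2-α2/CI, MP2-α2/TC and MP2-mock arrays shared a minimum of 2.24 (the first set), and the MP2-α2Δ and MP2-α9α2 arrays shared one of 2.21 (the second set), so the sets were taken as normalized apart. Correlations over probe sets were 0.9989 to 0.9995 within the first set, 0.987 within the second and 0.958 to 0.966 between them. The floor of an array, 2.21 to 2.27, was the 95th percentile of its 107 odorant receptor probe sets, and lower values were set to it ahead of any subtraction. Comparisons across the sets were made after quantile normalization of all 5 arrays. The integrin label itself could not be checked. The α2 construct holds coding sequence, while arrays of this design read mostly the 3′ end of a transcript, and both ITGA2 probe sets were at the minimum on the MP2-α2/CI and MP2-α2/TC arrays. All 4 ITGA9 probe sets were at the minimum on every array. The array labelled MP2-α2Δ stood apart and went against the description of its parental line. MIAPaCa2 cells are described as having neither α1 nor α2 integrin, yet ITGA2 read 7.28 and 3.28 and ITGA1 6.60 and 4.52 on that array, with the minimum on the other 4. The paper states that its array analysis found no α2 expression in any of the cells. The identity of this library is therefore in question for every MP2-α2Δ value, and it was not tested. Of the epithelial markers of the labelled cell type, KRT8, KRT18 and KRT19 read 11.74 to 15.22 on all arrays, whereas EPCAM stayed at or below the floor everywhere and CDH1 and KRT7 read at most 2.26 and 2.37. Of 4 markers of a mesenchymal state, VIM and ZEB1 read 15.48 to 15.85 and 10.12 to 11.09, and CDH2 and FN1 read at most 2.31 and 2.28.

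Of the 49 members, 31 lay above the floor on at least 1 array (63.3%, against 68.4% of all genes), 24 on all 5 arrays and 18 on none. The number above the floor was 26 on the MP2-α2/CI array, 26 on MP2-α2/TC, 29 on MP2-α2Δ, 29 on MP2-α9α2 and 26 on MP2-mock. These counts use unlike floors, 2.25 to 2.27 in the first set and 2.21 in the second. PDGFRB and TEK counted in the second set alone, at 2.23, although they read 2.24 in the first. Values above 4, well clear of the floor, were read for 22 members on at least 1 array. The 18 at or below the floor throughout included the neuregulin receptor ERBB4 and the insulin receptor-related INSRR. They also included PDGFRA, KIT, CSF1R and FLT3 of the PDGF receptor group, the VEGF receptor KDR, the neurotrophin receptors NTRK2 and NTRK3, and ROR2 and MUSK. The others were MST1R, TIE1, the EPH receptors EPHA1, EPHA3, EPHA5 and EPHB1, and ROS1. PDGFRB and TEK, receptors of stromal and endothelial cells, read at most 2.24 on any array, and PECAM1, VWF and the other endothelial markers stayed below 4.

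**Figure D1:**
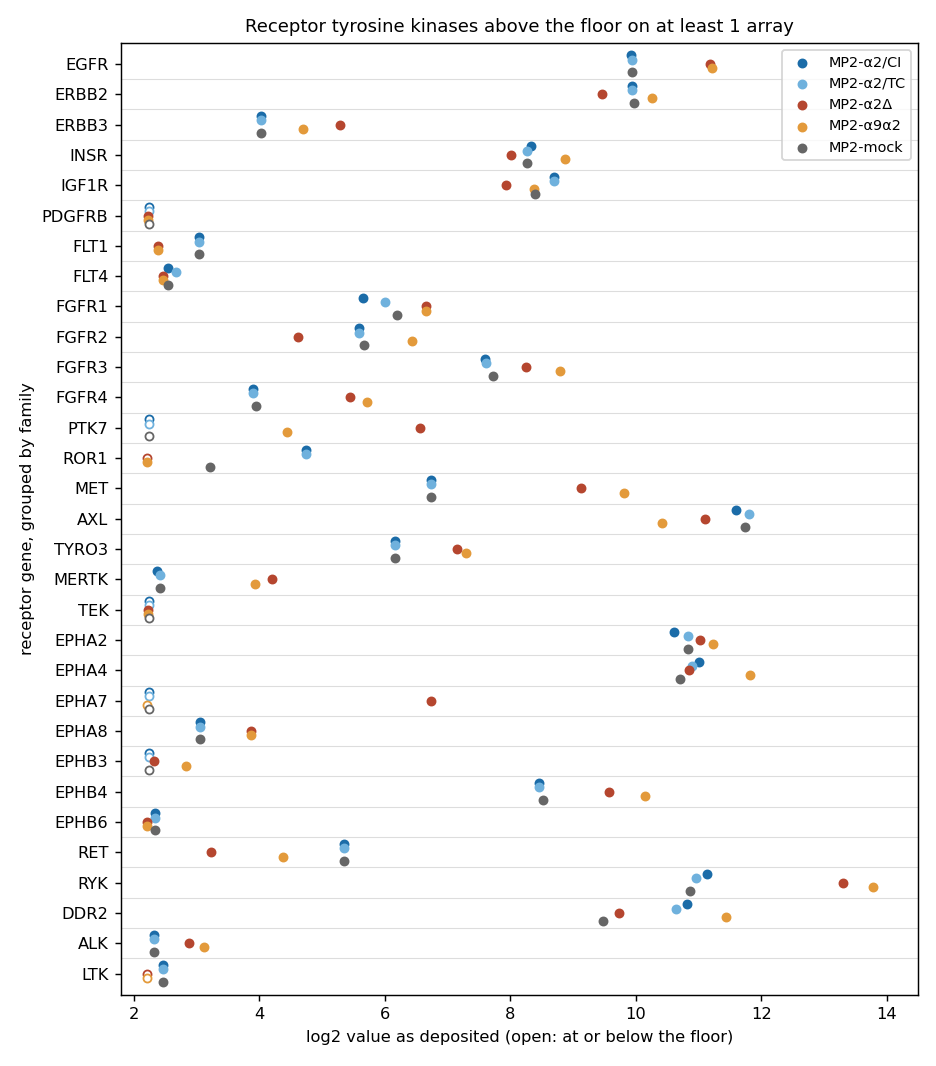
Log2 value as deposited (x axis) of the 31 receptor genes above the floor on at least 1 array (y axis, grouped by family), 1 point per array and 1 probe set per gene, open where the value is at or below the floor. Blue and grey points (MP2-α2/CI, MP2-α2/TC, MP2-mock) nearly coincide for most genes and separate for DDR2 and ROR1, while EPHA7 is above the floor on the MP2-α2Δ array alone.

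DDR2, a collagen receptor of mesenchymal cells, was higher on both full-length α2 arrays than on the MP2-mock array by all 4 of its probe sets, and all 4 were lower on the MP2-α2Δ array than on that of MP2-α9α2 cells. Its probe set 225442_at read 10.82 in MP2-α2/CI, 10.64 in MP2-α2/TC and 9.48 in MP2-mock cells. The differences from MP2-mock were 1.34 (2.53-fold) for MP2-α2/CI and 1.16 (2.23-fold) for MP2-α2/TC. Both α2 arrays thus lay above the MP2-mock array, and they differed from each other by 0.18 (1.13-fold). In RNA of whole populations, more cells with the transcript and more transcript per cell cannot be told apart. Of 7 fibroblast markers, 2 read above 4: COL1A1 (7.18 in MP2-α2/CI, 7.18 in MP2-α2/TC and 7.19 in MP2-mock cells) and COL1A2 (12.01, 12.18 and 11.97), while COL3A1 was at the minimum. None of 4 blood and 5 endothelial markers read above 4.

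The other DDR2 probe sets also placed both α2 arrays above MP2-mock, with different sizes. Probe set 227561_at read 9.09 in MP2-α2/CI, 8.89 in MP2-α2/TC and 7.51 in MP2-mock cells, 2.98-fold and 2.59-fold above MP2-mock. Probe set 205168_at read 9.45, 9.29 and 7.94 in the same order, 2.85-fold and 2.55-fold above. Probe set 235631_at, the one of lowest signal, read 5.84, 5.87 and 5.03, with MP2-α2/TC slightly above MP2-α2/CI, and its differences of 0.80 and 0.84 stayed under 2-fold. In the second set, 225442_at read 9.73 in MP2-α2Δ cells, against 11.44 in MP2-α9α2 cells, a difference of -1.71 (3.27-fold lower). The differences of 227561_at, 205168_at and 235631_at were -1.93, -1.55 and -1.04. Probe sets of 1 gene share the RNA of 1 array and do not replicate a population.

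Against MP2-mock, across the sets, DDR2 had no single direction in MP2-α2Δ cells. After quantile normalization its probe sets differed by -0.43 (225442_at), 0.54 (227561_at), -1.25 (235631_at) and -1.34 (205168_at). In MP2-α9α2 cells the differences were 1.38, 2.57, -0.26 and 0.27 in the same order. For 225442_at in MP2-α9α2 cells the difference stayed above 2-fold on all 3 scales, at 1.96 as deposited and 1.15 after centring.

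**Figure D2:**
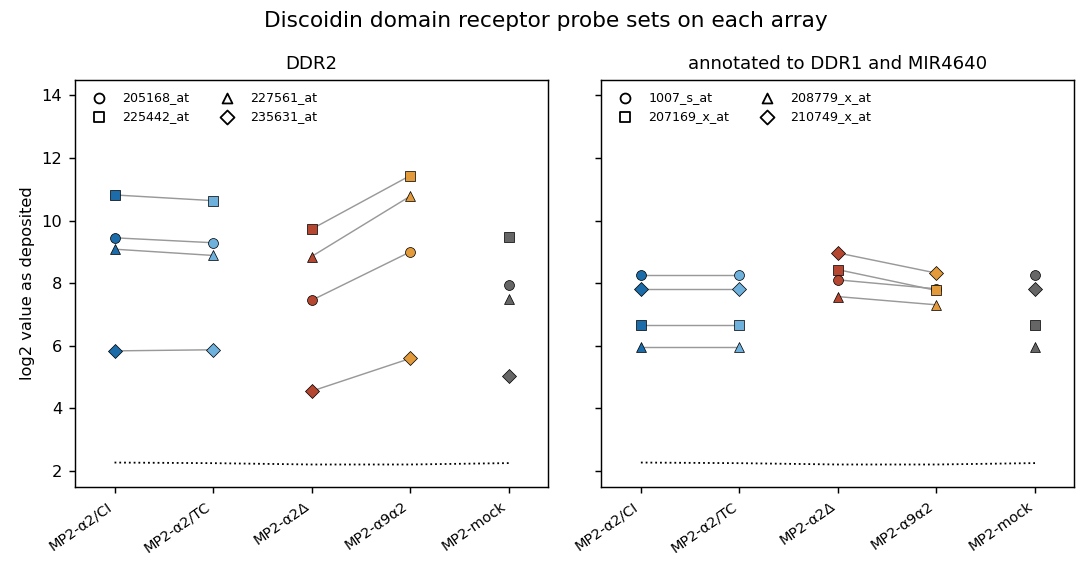
Log2 value as deposited (y axis) of the 4 DDR2 probe sets (left) and of the 4 probe sets annotated to both DDR1 and MIR4640 (right) on each array (x axis), 1 symbol per probe set, with lines joining the arrays of 1 comparison and the floor dotted. All 4 DDR2 probe sets lie higher on the MP2-α2/CI and MP2-α2/TC arrays than on MP2-mock and lower on the MP2-α2Δ than on the MP2-α9α2 array, and the DDR1 and MIR4640 probe sets are level across MP2-α2/CI, MP2-α2/TC and MP2-mock.

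The probe sets annotated to both DDR1, the collagen receptor of epithelia, and MIR4640 gave identical values on the 3 arrays of the first set. Probe set 1007_s_at read 8.25 on each of the MP2-α2/CI, MP2-α2/TC and MP2-mock arrays, and 210749_x_at, 207169_x_at and 208779_x_at read 7.81, 6.66 and 5.97 on each. Identity to the last decimal was common in this set: between MP2-α2/TC and MP2-mock it held for 12 of 26 measured members (46.2%) and 43.1% of all genes. The sources used here do not say how such values arose, so a difference of 0 is a statement about the deposited numbers. In the second set MP2-α2Δ cells had the higher value for all 4, at 8.11 against 7.82 (1007_s_at), 8.97 against 8.32 (210749_x_at), 8.43 against 7.77 (207169_x_at) and 7.57 against 7.31 (208779_x_at). These differences of 0.26 to 0.66 stayed under 2-fold. Against MP2-mock, after quantile normalization, they spanned -0.96 to 0.95 in MP2-α2Δ and -1.21 to 0.49 in MP2-α9α2 cells, with both signs present.

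ROR1, a receptor of the Wnt ligand WNT5A, was the other member above MP2-mock by 2-fold or more on both α2 arrays. Its probe set 205805_s_at read 4.74 in MP2-α2/CI, 4.74 in MP2-α2/TC and 3.22 in MP2-mock cells, a difference of 1.53 (2.88-fold) for each. The probe sets 232060_at (4.30, 4.21 and 3.48) and 211057_at (3.49, 3.47 and 2.65) differed the same way by 0.82 and 0.84 in MP2-α2/CI and by 0.73 and 0.82 in MP2-α2/TC cells, under 2-fold. All ROR1 values were low, and with a floor of 4 the difference was under 2-fold. The 3 probe sets read at most 2.32 on both arrays of the second set. WNT5A was at or below the floor on the other 4 arrays and read 5.43 in MP2-α9α2 cells, and ROR2, its second receptor of this family, was at or below the floor on all 5.

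Among 26 measured members DDR2 and ROR1 were thus the 2 at least 2-fold higher on the MP2-α2/CI array relative to MP2-mock, where 0.262% of 12608 genes were, and none was lower, against 0.389% of genes. For MP2-α2/TC relative to MP2-mock the same 2 of 26 were higher, where 0.292% of 12682 genes were, and none was lower, against 0.378%. These 2 comparisons share the MP2-mock array. Among all measured genes ROR1 had the 12th largest positive difference in both comparisons, and DDR2 the 18th in MP2-α2/CI and the 28th in MP2-α2/TC. The median difference over the members was 0 in both, as over all genes.

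The sequences just upstream of both genes are shown because these members differed together on the α2 arrays. The 250 bases before the first annotated start are from RefSeq (GRCh38.p14), 5′ to 3′ in the direction of transcription, with motif matches in capitals. DDR2 has 3 annotated starts and ROR1 has 1. The motifs searched, on both strands, were AP-1 (TGANTCA), the GC box (GGGCGG), the CCAAT box (CCAAT), an ETS core (CCGGAAG) and the E box (CACGTG).
DDR2, chr1:162630613-162630862 (+ strand): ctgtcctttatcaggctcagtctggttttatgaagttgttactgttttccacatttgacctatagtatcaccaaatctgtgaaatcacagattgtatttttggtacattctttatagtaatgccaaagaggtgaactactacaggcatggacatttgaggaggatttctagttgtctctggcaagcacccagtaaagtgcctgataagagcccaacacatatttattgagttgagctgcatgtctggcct
ROR1, chr1:63773767-63774016 (+ strand): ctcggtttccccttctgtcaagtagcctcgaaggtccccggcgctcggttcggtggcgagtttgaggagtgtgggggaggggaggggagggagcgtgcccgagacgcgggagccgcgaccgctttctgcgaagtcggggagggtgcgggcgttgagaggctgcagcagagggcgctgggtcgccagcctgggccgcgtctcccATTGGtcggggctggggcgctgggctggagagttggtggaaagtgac
Of these motifs, the DDR2 window held none and the ROR1 window held 1 CCAAT box, on the reverse strand (read here as ATTGG). Of 35116 windows of the same length, 32% held a CCAAT box, 42.6% a GC box, 6.57% an AP-1 match, 8.52% an ETS core and 6.34% an E box. Of the windows at the 2 later DDR2 starts, not shown, 1 held 2 CCAAT boxes and the other none of the motifs. In the windows shown the G and C content was 40% for DDR2 and 69.2% for ROR1. A match is a string of letters in this window and does not show a bound factor.

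Receptors of the growth factor families were otherwise nearly level between the α2 and MP2-mock arrays. EGFR, the receptor of EGF and TGFα, read 9.92 in MP2-α2/CI, 9.93 in MP2-α2/TC and 9.93 in MP2-mock cells (224999_at). ERBB2, its ligandless partner, read 9.94, 9.94 and 9.97. MET, the receptor of HGF, read 6.74 on all 3 arrays, EPHB4 read 8.46, 8.46 and 8.52, and TYRO3, of the TAM family, read 6.17 on all 3. AXL, a TAM receptor bound by GAS6, read 11.60, 11.81 and 11.73, and EPHA2, a receptor of ephrin-A1, read 10.61, 10.82 and 10.82. RYK read 11.13, 10.96 and 10.87, and EPHA4, which binds ephrins of both classes, read 11.00, 10.89 and 10.71 (227449_at). INSR, the insulin receptor, read 8.33, 8.26 and 8.26 (213792_s_at), although its 226212_s_at read 4.63, 4.56 and 5.01, and FGFR3 read 7.59, 7.62 and 7.72. Of the 15 members with the highest mean in this set, 14 were not DDR2, and the largest difference among these 14 was 0.31 (IGF1R, 1.24-fold) in MP2-α2/TC and 0.54 (FGFR1, 1.45-fold lower) in MP2-α2/CI cells.

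Probe sets of IGF1R, FGFR1, INSR and FGFR4 differed from MP2-mock by over 0.3 on both α2 arrays while staying under 2-fold. For INSR 226212_s_at the differences were -0.38 in MP2-α2/CI and -0.44 in MP2-α2/TC, and for FGFR4 1554962_a_at they were -0.30 and -0.32. IGF1R, the receptor of IGF1 and IGF2, read 8.70 in MP2-α2/CI, 8.70 in MP2-α2/TC and 8.39 in MP2-mock cells (203627_at). Its probe set 225330_at read 7.12, 6.88 and 6.43, differences of 0.69 and 0.45 from MP2-mock, while 203628_at differed by 0.08 and 0. FGFR1, a receptor of FGF2, read 5.65 in MP2-α2/CI, 6.01 in MP2-α2/TC and 6.19 in MP2-mock cells (211535_s_at). Its probe set 226705_at read 4.52, 4.52 and 5.49, a difference of -0.97 on both α2 arrays, and none of the other FGFR1 probe sets differed by more than 0.04.

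In the comparison of collagenI with plastic (MP2-α2/CI over MP2-α2/TC), 0 of 26 measured members were at least 2-fold higher and 0 were lower, against 0.0395% and 0.15% of 12647 genes. Identical values on both arrays were read for 15 of the 26 (57.7%, against 43.9% of genes). The largest differences were those of FGFR1 (-0.36), EPHA2 (-0.21), AXL (-0.21), DDR2 (0.18) and RYK (0.18).

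**Figure D3:**
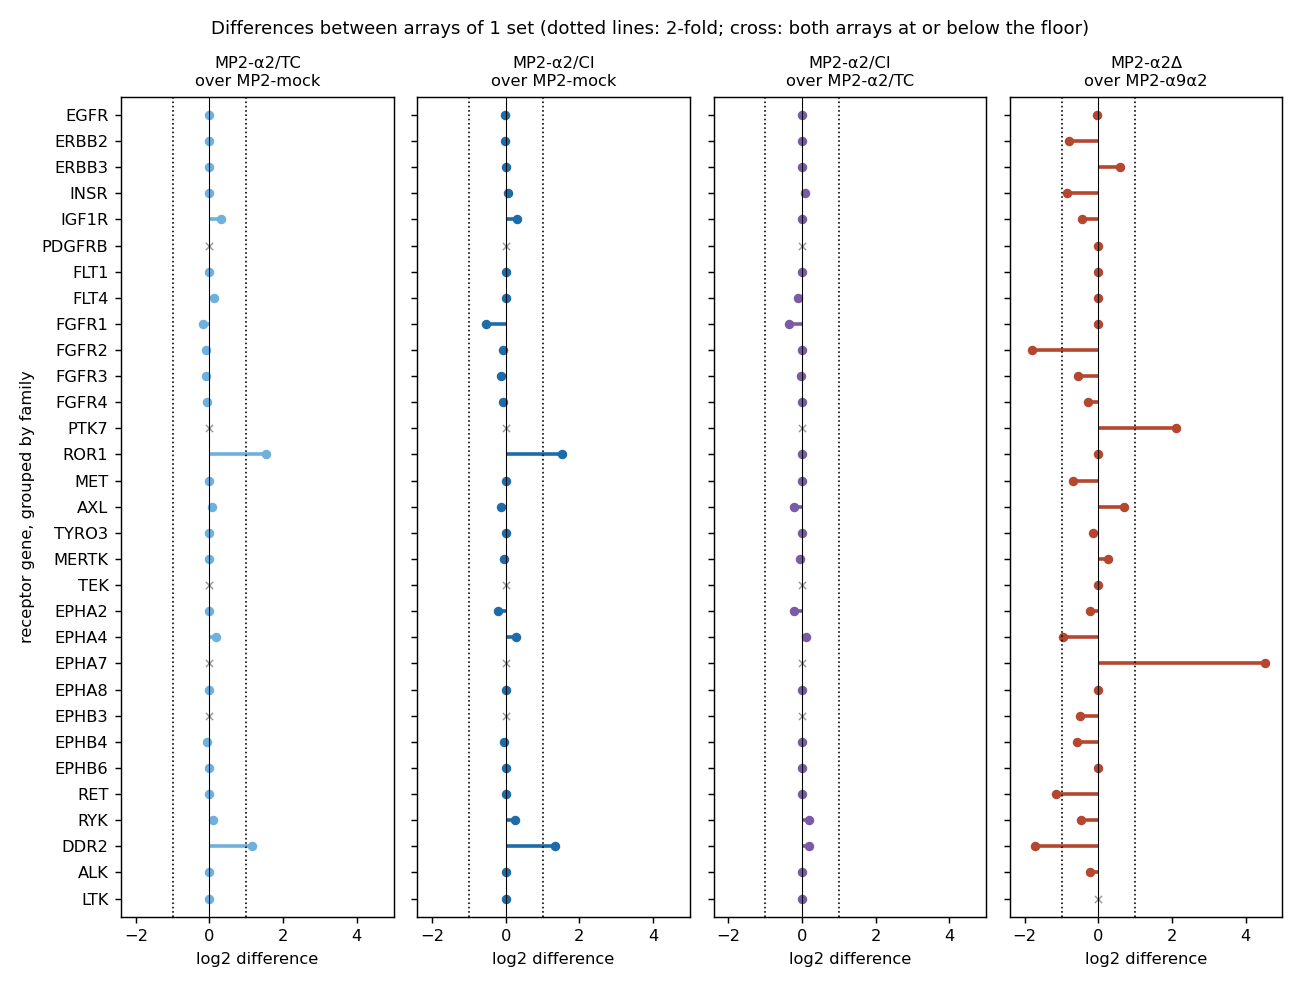
Log2 difference (x axis, 1 panel per comparison within a set) of the 31 receptor genes above the floor on at least 1 array (y axis), 1 probe set per gene, with dotted lines at 2-fold and a cross where both arrays are at or below the floor. ROR1 and DDR2 pass 2-fold in both panels against MP2-mock, no gene does for MP2-α2/CI over MP2-α2/TC, and 5 do for MP2-α2Δ over MP2-α9α2.

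Between MP2-α2Δ and MP2-α9α2 cells, the comparison that sets the α2 ectodomain without its tail against the tail without its ectodomain, EPHA7 and PTK7 were at least 2-fold higher, and FGFR2, RET and DDR2 lower, in the library labelled MP2-α2Δ. These were 2 higher of 30 measured members, against 10.1% of 12924 genes, and 3 lower, against 4.97%. The members' shares of 6.67% and 10.0% rest on these 5 genes. The median difference over the members was -0.18, against 0 over all genes, with 5 members above 0 and 19 below. Over all genes, 39.3% were below 0 and 23.3% were identical on both arrays.

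EPHA7, an ephrin-A receptor, was above the floor in MP2-α2Δ cells alone, by all 4 of its probe sets. Probe set 229288_at read 6.73 in MP2-α2Δ cells and 2.21 in MP2-α9α2 cells, a difference of at least 4.52 (at least 23.0-fold). Probe sets 238533_at, 1554629_at and 206852_at read 5.60, 5.22 and 3.53 in MP2-α2Δ cells and lay at or below the floor on each other array, so that they were at least 10.5-fold, 8.07-fold and 2.50-fold higher than in MP2-α9α2 cells. EPHA7 had the 45th largest positive difference of all measured genes. PTK7 read 6.57 in MP2-α2Δ cells, against 4.45 in MP2-α9α2 cells, by 207011_s_at (4.34-fold), and lay at or below the floor on the other 3 arrays. Its second probe set, 1555324_at, read at most 2.24 on every array. An ID ending in _s_at denotes probes shared by several transcripts.

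EPHA7 thus shared its pattern with ITGA2 (227314_at and 205032_at) and ITGA1 (226731_at and 214660_at). These integrin genes were above the floor on the library labelled MP2-α2Δ alone. PTK7 did not share it, being above the floor in MP2-α9α2 cells too (4.45). The part of this library's identity in the values of these genes was not tested. A further ITGA1 probe set, 1560359_at, was at the minimum on all 5 arrays. ITGB1, the β1 partner, read 14.24 in MP2-α2Δ, 14.84 in MP2-α9α2 and 13.57 to 13.61 in the first set. MRC2, the endocytic collagen receptor, read 7.91 in MP2-α2Δ cells and 9.11 in MP2-α9α2 cells (-1.20), and 7.75, 7.61 and 7.65 in MP2-α2/CI, MP2-α2/TC and MP2-mock cells (37408_at). Its other probe set, 209280_at, was nearly level between MP2-α2Δ (6.941) and MP2-α9α2 cells (6.998), so the MRC2 probe sets disagreed. LAIR1, an inhibitory collagen receptor of leukocytes, read 4.32 on all arrays of the first set and 2.24 on both of the second. ITGA10, ITGA11 and GP6 read at most 2.29 throughout. None of these collagen receptors was 2-fold apart within the first set.

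For comparison with the windows above, the same stretch upstream of EPHA7 and PTK7 is shown with the same motifs in capitals. EPHA7 has 3 annotated starts and PTK7 has 2, and the first is used.
EPHA7, chr6:93419560-93419809 (- strand): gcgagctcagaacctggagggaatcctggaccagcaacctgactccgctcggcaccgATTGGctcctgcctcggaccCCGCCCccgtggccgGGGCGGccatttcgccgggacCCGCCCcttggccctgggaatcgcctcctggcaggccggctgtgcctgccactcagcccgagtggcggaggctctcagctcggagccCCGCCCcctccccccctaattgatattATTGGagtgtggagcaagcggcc
PTK7, chr6:43076064-43076313 (+ strand): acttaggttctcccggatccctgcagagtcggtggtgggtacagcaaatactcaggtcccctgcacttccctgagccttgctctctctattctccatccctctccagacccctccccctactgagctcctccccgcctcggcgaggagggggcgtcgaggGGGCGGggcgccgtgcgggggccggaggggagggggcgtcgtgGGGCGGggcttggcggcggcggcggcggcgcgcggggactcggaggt
The EPHA7 window held 4 GC boxes and 2 CCAAT boxes (read as CCGCCC and ATTGG where on the reverse strand), and the PTK7 window held 2 GC boxes. Their G and C content was 69.6% and 71.6%. Of the 51 members 47 had a window in the RefSeq table, 78 windows in all, and 62.8% of these held a GC box.

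FGFR2, a receptor of FGF7 and FGF10, read 4.62 in MP2-α2Δ cells, against 6.43 in MP2-α9α2 cells, by 203638_s_at, a difference of -1.81 (3.49-fold lower). Its probe set 203639_s_at was at or below the floor in MP2-α2Δ cells and read 3.42 in MP2-α9α2 cells, at least 2.31-fold lower. The FGFR2 probe set 208229_at, in contrast, read 5.75 on both arrays, so the probe sets of this gene disagreed. RET, the GDNF receptor, read 3.23 in MP2-α2Δ cells, against 4.39 in MP2-α9α2 cells, by 205879_x_at (-1.16, 2.23-fold lower). Its probe set 211421_s_at read 2.45 in MP2-α2Δ cells, against 5.54 in MP2-α9α2 cells, 8.50-fold lower, and 215771_x_at was at least 2.09-fold lower. All 3 RET probe sets therefore had the same direction, although each ID ends in _s_at or _x_at, the endings of shared or cross-hybridising probes.

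Members with another probe set past 2-fold between these arrays were EPHA4 and, from low values, MERTK. EPHA4 read 10.85 in MP2-α2Δ cells, against 11.81 in MP2-α9α2 cells, by 227449_at (-0.96), 10.47 against 11.73 by 228948_at (-1.26), 7.87 against 9.46 by 206114_at (-1.59) and 8.83 against 9.62 by 229374_at (-0.79). All 4 were lower in MP2-α2Δ cells. MERTK, a TAM receptor, read 4.21 against 3.94 by 206028_s_at and 3.43 against 2.42 by 211913_s_at (1.01). Among the rest, values are of the probe set that stands for the gene. INSR (8.01, against 8.87 in MP2-α9α2 cells), ERBB2 (9.46 and 10.25) and MET (9.12 and 9.81) were lower by 0.86, 0.80 and 0.69 in MP2-α2Δ cells. AXL (11.10 and 10.41) and ERBB3 (5.29 and 4.70) were higher by 0.69 and 0.59. Other probe sets differed less: the medians were -0.13 for INSR, -0.045 for ERBB2 and 0 for ERBB3. The AXL probe sets differed by 0.09 and 0.69, and those of MET by -0.69 to -0.44. EGFR read 11.18 and 11.21 by 224999_at, and its probe sets differed by -0.03 to 0.63.

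**Figure D4:**
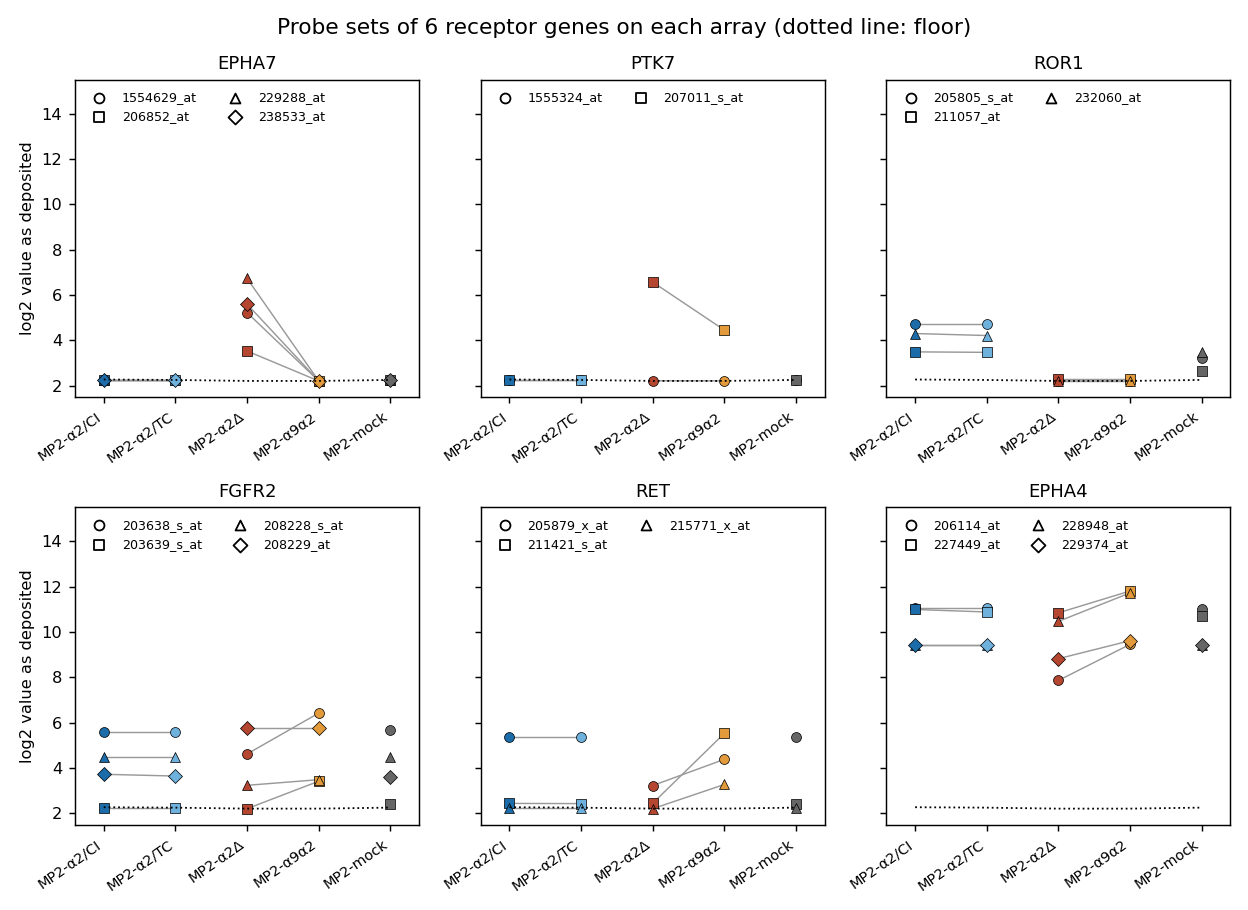
Log2 value as deposited (y axis) of EPHA7, PTK7, ROR1, FGFR2, RET and EPHA4 on each array (x axis), 1 symbol per probe set and at most the 4 that read highest on any array, with lines joining the arrays of 1 comparison and the floor dotted. EPHA7 leaves the floor in MP2-α2Δ cells alone, ROR1 is highest on both α2 arrays, and every RET and EPHA4 probe set is lower on the MP2-α2Δ than on the MP2-α9α2 array.

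Across the sets, against MP2-mock and after quantile normalization, 5 of 31 measured members were at least 2-fold higher in the library labelled MP2-α2Δ (PTK7, MET, MERTK, EPHA7 and RYK), against 14.2% of 13424 genes, and 7 were lower (ERBB2, INSR, IGF1R, FGFR2, ROR1, AXL and RET), against 16.5%. In MP2-α9α2 cells 6 of 30 were higher (FGFR4, PTK7, MET, MERTK, RYK and DDR2), against 17.5% of 13415 genes, and 3 were lower (ROR1, AXL and RET), against 20.1%. These comparisons share the MP2-mock array and depend on the scale: the median difference over probe sets that exceeded the floor on every array was -0.02 and 0.02 after quantile normalization, 0.53 and 0.54 as deposited and -0.31 and -0.27 after centring, for MP2-α2Δ and MP2-α9α2 over MP2-mock. For MP2-α2Δ the members counted were 9 higher and 3 lower as deposited and 4 and 9 after centring, and for MP2-α9α2 they were 11 and 2, and 4 and 5. Centring also moved the floors apart, to 2.59 for MP2-mock, 1.70 for MP2-α2Δ and 1.74 for MP2-α9α2. Genes near the floor on both arrays then read lower in the second set, as TEK did (-0.86 and -0.83). FLT1 and LTK, of low values, were counted as lower after centring alone. Over all genes at least 2-fold apart, 46.2% were higher in MP2-α2Δ cells after quantile normalization, 81.4% as deposited and 32.8% after centring, and for MP2-α9α2 cells the shares were 46.6%, 74.2% and 36.5%.

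By the probe set that stands for each gene, 7 members were at least 2-fold from MP2-mock in MP2-α2Δ cells on all 3 scales: PTK7, MET, EPHA7 and RYK, which were higher, and FGFR2, ROR1 and RET, which were lower. In MP2-α9α2 cells 6 were, PTK7, MET, RYK and DDR2 being higher and ROR1 and AXL lower. ROR1 passed narrowly as deposited, at -1.006 (MP2-α2Δ) and -1.005 (MP2-α9α2), with second-set values at or near the floor. The share of all genes that passed on all 3 scales was not computed, so these counts have no background beside them. RYK read 13.30 in MP2-α2Δ, 13.78 in MP2-α9α2 and 10.87 in MP2-mock cells (202853_s_at), and after quantile normalization its 3 probe sets differed from MP2-mock by 0.80 to 1.95 and by 1.53 to 2.41. MET read 9.12, 9.81 and 6.74 (203510_at), 1.60 and 2.32 above MP2-mock, but its 211599_x_at differed by -0.86 and -0.35. AXL read 11.10, 10.41 and 11.73 (202686_s_at), -1.19 and -1.88 from MP2-mock, and its second probe set differed by -1.68 and -1.71. RET, lower in both by 205879_x_at (-2.67 and -1.65), differed by -0.01 and 2.64 by 211421_s_at. The FGFR2 probe sets ran from -1.83 to 1.37 in MP2-α2Δ cells, 1 being at least 2-fold higher and 2 lower. Probe sets of 1 gene could disagree across the sets. Values of both signs occurred for 12 of the 23 members with at least 2 measured probe sets in MP2-α2Δ cells and for 14 of 22 in MP2-α9α2 cells. Any value beyond 1e-06 counted as a sign, so some of these members disagreed by very little. PTK7 entered by -0.005 beside 3.79 (MP2-α2Δ), and TYRO3 by -0.003 beside 0.29 (MP2-α9α2). The same share over all genes was not computed. EGFR differed by 0.64 and 0.68 by 224999_at and by -1.69 and -1.85 by 201983_s_at, and EPHA4 by -0.45 and 0.56 by 227449_at and by -3.90 and -2.22 by 206114_at. The range over a member's probe sets had, over MP2-mock, a median of 1.44 (MP2-α2Δ) and 1.40 (MP2-α9α2), and one of 0.59 for MP2-α2Δ over MP2-α9α2, 0.15 for MP2-α2/CI and 0.12 for MP2-α2/TC over MP2-mock.

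Ligands, adaptors and inhibitors of the receptors were taken from lists chosen with earlier results of these data known. Of these genes, 2 were at least 2-fold above MP2-mock on at least 1 α2 array, and none was that far below it. Among all genes, the shares that far above MP2-mock were 0.262% for MP2-α2/CI and 0.292% for MP2-α2/TC. The shares that far below it were 0.389% and 0.378%. PTPRK, a receptor phosphatase that dephosphorylates EGFR, read 4.71 in MP2-α2/CI, 5.28 in MP2-α2/TC and 3.59 in MP2-mock cells, differences of 1.12 and 1.69. The MP2-mock value was low, and with a floor of 4 the MP2-α2/CI difference would be under 2-fold. PTPRK was the 1 of 12 measured negative regulators to pass 2-fold in either comparison. PROS1, protein S, a ligand of TYRO3 and MERTK, read 8.44, 8.12 and 7.39, differences of 1.04 and 0.73. It was the 1 of 7 measured genes in the list of MET, AXL, TIE, RET and ALK ligands to pass 2-fold, in MP2-α2/CI cells alone. GAS6, the ligand of AXL, read 6.94 on all 3 arrays. None of the 25 measured adaptors, 5 ErbB ligands, 6 FGFs, 11 ligands of the PDGF, VEGF, CSF1 and KIT receptors and 8 ephrins passed 2-fold on either α2 array. None of the listed genes did between collagenI and plastic, where 0.0395% of all genes were higher and 0.15% lower. No claim is made that a list stands apart from all genes.

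For MP2-α2Δ over MP2-α9α2 cells, where 10.1% (higher) and 4.97% (lower) of all genes passed 2-fold, the listed genes are given by group, with no claim that a group stands apart from all genes. PROS1 read 9.79 in MP2-α2Δ cells, against 12.45 in MP2-α9α2 cells (-2.66), and VEGFC, a ligand of FLT4, read 8.76 and 11.61 (-2.85). The ErbB ligands HBEGF and NRG2 read 6.77 and 8.12 (-1.35), and 2.44 and 4.49 (-2.05), the 2 lower of 5 measured. PDGFA and VEGFB were higher in MP2-α2Δ cells, at 6.61 against 4.75 (1.86) and 5.84 against 4.44 (1.39). WNT5A was at or below the floor in MP2-α2Δ cells, against 5.43 in MP2-α9α2 cells, at least 3.22 lower on the log2 scale. Of 26 measured adaptors, 2 were lower, GAB1 (3.49 and 4.59) and GRB10 (8.75 and 10.71), and the adaptors had a median of -0.12. Of 12 negative regulators, LRIG1 (4.97 and 6.09), the phosphatases PTPN1 (8.02 and 9.28) and PTPRF (12.08 and 13.33) were lower and the ubiquitin ligase STUB1 (12.54 and 11.45) was higher. Of the receptor kinases outside the list, LMTK2 read 9.80 in MP2-α2Δ cells, against 10.34 in MP2-α9α2 cells and 8.50 to 8.60 in the first set, and none of the 3 measured was 2-fold apart within a set. None of the 8 ephrins and none of 14 measured genes linked to DDR signalling, among them SRC, SHC1, NCK2 and PTPN11, passed 2-fold. COL1A2, which encodes a chain of the collagen that DDR2 binds, read 12.42 in MP2-α2Δ, 13.08 in MP2-α9α2 and 11.97 to 12.18 in the first set.

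Some members had low values. FLT1, FLT4, EPHA8, EPHB3, EPHB6, ALK and LTK lay above the floor on at least 1 array but read at most 3.86 on any, and FLT1, FLT4, EPHA8 and EPHB6 read the same in MP2-α2Δ and MP2-α9α2 cells. ERBB3 and FGFR4 were low in the first set alone. ERBB3 read 5.29 (MP2-α2Δ) and 4.70 (MP2-α9α2) in the second set, and 4.02 on all arrays of the first set. FGFR4 read 5.45 (MP2-α2Δ) and 5.72 (MP2-α9α2), and 3.89 in MP2-α2/CI, 3.89 in MP2-α2/TC and 3.96 in MP2-mock cells.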

How the data were processed

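Total RNA of 5 populations was profiled on 1 Affymetrix array each. For each probe set the authors deposited a normalized value, here taken as log2 from its range, since no log base was stated in the sources used here. GCRMA and MAS5 are named in the submitters' processing notes, with neither a role nor a version. Probe sets were named from the platform annotation, 41091 having 1 symbol, 1801 several and 11721 none, after 62 controls were left out. Of the single symbols, 41037 were looked up in RefSeq by gene identifier and took its symbol, whether or not it differed. Each gene was represented by whichever of its probe sets averaged highest across the 5 arrays.

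Values were raised to each array's floor (95th percentile of 107 odorant receptor probe sets), log2 differences were taken for 6 pairs of arrays, and genes at least 2-fold apart were counted among those above the floor on either array. A difference from the floor is a bound. Pairs across the sets used values quantile normalized over 5 arrays, with the deposited and the median-centred values as alternatives. With 1 array per population there is no replicate check, no test and no error, and the number of arrays limits the precision. The functions were tested on simulated data. Python 3.11.15, numpy 2.4.6 and pandas 2.3.3 were used.

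The members, the lists and the rule for named genes were chosen with earlier results of these data known. Named were the DDR1 and DDR2 probe sets, members with a probe set at least 2-fold apart within a set, the 15 members with the highest mean in the first set, up to 4 genes per list past 2-fold, and the other collagen receptors. RET, AXL, MET and RYK against MP2-mock, other members' probe sets, among them those of MERTK, and GAS6, COL1A2, SRC, SHC1, NCK2 and PTPN11 were named after their values were seen. Alternatives were 1.5-fold or 3-fold, no floor or a floor of 4, the median of a gene's probe sets, leaving out IDs ending in _x_at or _s_at, and the other scales.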

Additional observations from a re-analysis of the deposited data

How the results depend on the processing

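Of 144 alternative values, 118 stayed close to the reported one, 25 moved and 1 reversed. This tally overstates how stable the results are. With no floor or a floor of 4 the DDR1 and DDR2 differences could not move, since the probe sets used read far above 4. Counts were compared by size alone, whichever members made them up. For MP2-α2Δ over MP2-mock the median of the probe sets gave 8, against 12, with EGFR and EPHA4 added and MET, RET and RYK among those lost. Closeness does not fix direction. Of the 96 alternative DDR1 and DDR2 differences, 8 had the other sign, of which 6 are among the values below and the others are 0.25 for DDR2 as deposited (MP2-α2Δ over MP2-mock, against -0.43) and 0.29 for 207169_x_at (MP2-α9α2 over MP2-mock, against -0.29). A count of 12 for MP2-α2Δ over MP2-mock was 5 higher and 7 lower after quantile normalization and 9 and 3 as deposited. A value counted as moved when a count changed by over 1.5 times, or a difference by more than the SD over the gene's probe sets, or 1.1-fold where that SD was smaller. At 3-fold, 0 members were apart between either α2 array and MP2-mock, 6 between MP2-α2Δ and MP2-mock (12 at 2-fold) and 5 between MP2-α9α2 and MP2-mock (9 at 2-fold). At 1.5-fold, 11 members were apart for MP2-α2Δ over MP2-α9α2 (5 at 2-fold) and 14 for MP2-α9α2 over MP2-mock. For the other folds, floors and probe set choices the share of all genes was not computed, so these counts have no background. With a floor of 4, DDR2 alone was left for each α2 array (1, against 2). It was also the 1 left without _x_at and _s_at probe sets on both, and with the median of the probe sets in MP2-α2/TC. Without _x_at and _s_at probe sets, which leaves 40 members and removes the probe sets of PTK7, RET and FGFR2 that stood for these genes, 2 members (EPHA7 and DDR2) were apart for MP2-α2Δ over MP2-α9α2 and 6 for MP2-α2Δ over MP2-mock. For DDR2, 235631_at gave 0.84 and 0.80 against MP2-mock in MP2-α2/TC and MP2-α2/CI, -0.035 for MP2-α2/CI over MP2-α2/TC and -1.04 for MP2-α2Δ over MP2-α9α2. It reversed the difference of MP2-α9α2 over MP2-mock (-0.26, against 1.38), and for MP2-α2Δ over MP2-mock 227561_at gave 0.54 and 205168_at -1.34. For the probe sets annotated to DDR1 and MIR4640, 210749_x_at standing for them, 1007_s_at gave 0.29 (against 0.65) for MP2-α2Δ over MP2-α9α2 and 208779_x_at gave 0.26. Against MP2-mock 1007_s_at gave -0.96 in MP2-α2Δ (against 0.36) and -1.21 in MP2-α9α2 cells (against -0.29), where 208779_x_at gave 0.49 and the deposited values 0.51. The cause was not tested. No paired analysis was possible because each population has 1 array, and no array could be left out for the same reason. Signal over the floor is the only guide to precision: ROR1, MERTK and the lower PTK7 and RET values lie within 3 log2 units of it.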
